A study of Mus musculus with 6 samples.

Results

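The genes described here make the 2 kinds of small tag that a cell attaches when it disposes of its own material: ubiquitin, which is joined to proteins, and the LC3 and GABARAP proteins, which are joined to a membrane lipid during autophagy. They are the polyubiquitin gene Ubb, the LC3 genes Map1lc3a and Map1lc3b, the GABARAP genes Gabarap, Gabarapl1 and Gabarapl2, the cargo receptor gene Sqstm1 and the initiation gene Becn1. All 8 were found by their symbols among the 55367 gene symbols of the table, with no symbol missing. The genes were chosen by name and function with the running comparison in these same libraries already in view. Their differences between groups are therefore given as a description, without a test.

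RNA came from 6 Smart-seq2 libraries of tdTomato-positive cells sorted from the mouse hippocampal dentate gyrus and labelled as neurons. This method reads whole polyadenylated transcripts from little input, after PCR amplification. All mice carried TRAP2;Ai9, given in the design as Fos-iCreERT2 with Rosa26-LSL-tdTomato, and all had gone through learned helplessness (LH+), a stress procedure. In 3 libraries the mice did no running (NR1, NR2 and NR3), and in 3 they had run voluntarily for 28 days (Run1, Run2 and Run3). No unstressed mice enter the comparison, so both groups share the stress, the genotype and the labelling. Because the Fos promoter drives the Cre, the reporter marks cells that had switched on Fos while the inducer was present, and not a cell type as such. The number of cells and animals behind each library and the age of the mice are not given in the sources used here, and the labels place every library in batch 1. Whether the libraries come from separate animals is likewise not stated, so spread between them may be technical. In such bulk values, fewer cells of a type and less RNA per cell cannot be told apart.

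The libraries were alike in summed FPKM (fragment numbers corrected for the length of the transcript and the size of the library), from 473786 to 492021. Between 5426 and 7355 genes reached FPKM 1 in a library, and 83.1% of all values were listed at 0. Zeros also occurred in genes that every cell uses: 3 of 12 housekeeping genes were listed at 0 in at least 1 library. The cell type label was checked against 6 markers of each of 7 cell types. Of the granule neuron markers, 0 of 6 reached FPKM 1 in all 6 libraries, and Dsp stayed under 1 in every library. Their summed FPKM was 0.285 to 264 in NR and 39.7 to 205 in Run. For neurons in general 3 of 6 markers reached FPKM 1 in all libraries, with sums of 273 to 772 in NR and 531 to 921 in Run. Astrocyte markers stood above these, with 6 of 6 at FPKM 1 in all libraries and sums of 2152 to 4313 in NR and 2339 to 4846 in Run. Oligodendrocyte markers (3 of 6) summed to 208 to 1331 and 145 to 867, and microglial markers (1 of 6) to 55.0 to 189 and 179 to 701. Endothelial markers (3 of 6) summed to 783 to 2001 and 774 to 1293, and mural cell markers (3 of 6) to 499 to 1444 and 317 to 743. The values below therefore belong to the sorted material as a whole, and the part of any cell type in them was not tested.

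Ubiquitin is made as a fusion and cut free by proteases. The polyubiquitin gene Ubb encodes ubiquitin units joined head to tail, while Rps27a encodes a single unit fused to a ribosomal protein. In autophagy, Becn1 belongs to the lipid kinase complex that starts the isolation membrane. The proteases of the Atg4 family then trim LC3 and GABARAP proteins to a terminal glycine, and conjugating enzymes join that glycine to phosphatidylethanolamine in the growing membrane. Sqstm1 binds ubiquitin on cargo with one domain and LC3 or GABARAP proteins with another, and so links both tags. Neurons depend on this route because they do not divide and cannot dilute damaged material.

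The ubiquitin-coding stretches of Ubb and its pseudogene are shown first, since they decide how far reads of this pair can be told apart. They were read from GENCODE M21 transcripts on GRCm38 (mm10). Ubb (chr11:62551171-62553213, plus strand) holds 4 such units of 228 bases and Rps27a holds 1, all with the same encoded residues. The lines give the first unit of Ubb and the matching stretch of the processed pseudogene Ubb-ps (chr14:46084028-46085000, named Gm1821 in GENCODE M21), 5′ to 3′, with capitals at bases unlike Ubb.
Ubb, first unit: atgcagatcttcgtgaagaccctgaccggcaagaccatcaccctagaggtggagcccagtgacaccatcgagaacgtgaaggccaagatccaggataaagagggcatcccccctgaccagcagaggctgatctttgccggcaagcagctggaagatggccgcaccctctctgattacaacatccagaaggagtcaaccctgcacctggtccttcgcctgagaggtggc
Ubb-ps: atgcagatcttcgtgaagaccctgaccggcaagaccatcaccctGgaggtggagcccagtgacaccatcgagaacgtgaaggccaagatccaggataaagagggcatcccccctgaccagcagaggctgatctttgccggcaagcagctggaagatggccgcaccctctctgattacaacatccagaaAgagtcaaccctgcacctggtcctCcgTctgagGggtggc
The Ubb-ps stretch differs from the Ubb unit at 5 bases (97.8% alike). The Rps27a unit was alike at 80.7% of bases.

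The 3′ coding ends of the 5 LC3 and GABARAP genes are shown because they hold the site of conjugation, which the RNA of every one of them encodes. Each line runs to the stop codon, and capitals mark the glycine codon after which Atg4 proteases cut.
Map1lc3a: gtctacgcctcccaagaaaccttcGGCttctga
Map1lc3b: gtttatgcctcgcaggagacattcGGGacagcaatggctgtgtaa
Gabarap: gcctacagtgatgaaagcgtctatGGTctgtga
Gabarapl1: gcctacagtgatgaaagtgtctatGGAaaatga
Gabarapl2: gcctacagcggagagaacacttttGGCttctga
The glycine is residue 120 in both LC3 genes and residue 116 in the 3 GABARAP genes. Map1lc3b encodes 5 residues after it and the others 1. Over the whole coding sequence, Map1lc3a and Map1lc3b were identical at 74.1% of aligned bases and Gabarap and Gabarapl1 at 74.9%. Gabarapl2 was identical to Gabarap at 62.5% and to Gabarapl1 at 63.8%, and LC3 against GABARAP genes gave 50.4% to 54.3%.

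Ubb had the highest level of the 8 genes in each of the 6 libraries. Its FPKM was 1706 in NR1, 1901 in NR2 and 1809 in NR3, and 1481 in Run1, 1275 in Run2 and 1799 in Run3. Run3 lay among the NR libraries, just below NR3 and above NR1, so the groups overlapped, while Run2 was the lowest library. The group means were 1805 ± 97.5 for NR and 1519 ± 264 for Run (SD, n = 3 each). On the log2(FPKM + 1) scale, used for all differences here, Run minus NR was -0.26 ± 0.20 (standard error of the limma fit). It was -0.14 without Run2 and -0.39 without Run3. Averaged over the 6 libraries, Ubb ranked 13 among 21587 protein-coding genes of the nuclear genome.

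Ubb was also among the steadiest genes. The residual SD within groups was 0.18 on the log2 scale, and of the 1751 genes that reached FPKM 1 in every library, only 22 had a smaller one (1.26%). Among the 45 genes with a mean of at least 1000 FPKM, the median SD was 0.39, and 2 genes had a smaller value than Ubb. Depth behind a value cannot be read from FPKM, but higher values rest on more fragments per kilobase within a library.

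**Figure D1:**
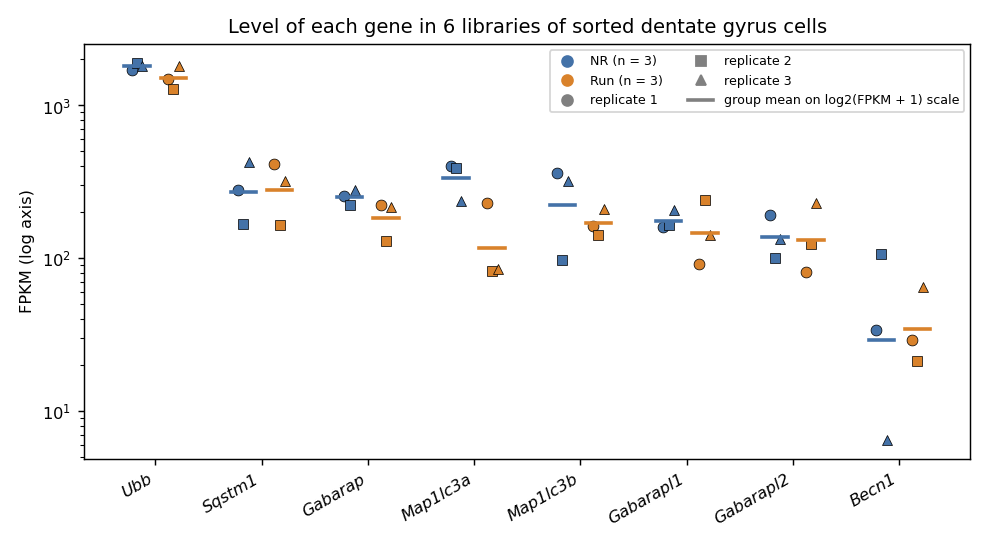
FPKM of the 8 genes on a log axis, 1 point per library (colour for the group, shape for the replicate number), with bars at the group means on the log2(FPKM + 1) scale (n = 3 each). Ubb stands above the rest in every library, Map1lc3a is the gene whose groups do not overlap, and Becn1 spreads from 6.45 to 106.

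Rps27a, a source of ubiquitin that also carries a protein of the small ribosomal subunit, was lower and more variable. It read 420, 431 and 205 FPKM in NR1 to NR3 and 443, 265 and 599 in Run1 to Run3. NR3 was its lowest library and Run3 its highest, and the groups overlapped.

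Map1lc3a (chr2:155276297-155278073, plus strand) differed most between the groups, and it was the gene of the 8 whose groups did not overlap. Its FPKM was 401, 390 and 238 in NR1 to NR3 and 230, 82.2 and 85.0 in Run1 to Run3. The gap was narrow at its edge, since NR3 and Run1 lay close together, while Run2 and Run3 stood well below every NR library. The means were 343 ± 91.4 and 132 ± 84.3 (SD, n = 3 each), 2.59-fold higher in NR, and the log2 difference was -1.50 ± 0.56. Left-out libraries moved it between -1.98 without Run1 and -1.25 without Run2.

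That 1 of 8 genes kept its groups apart (12.5%) compares with 551 of the 6155 genes fitted (8.95%). All Run libraries lay below all NR libraries in 258 of the 6155 (4.19%). Because the genes were chosen with this contrast in view, nothing is read from the comparison of these shares.

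Map1lc3b (chr8:121590361-121598760, plus strand), the LC3 gene most used as a marker of autophagosomes, showed no such separation. Its FPKM was 363, 97.8 and 318 in NR1 to NR3 and 163, 142 and 211 in Run1 to Run3. NR2 was the lowest of all 6 libraries, the other NR libraries were the highest, and the groups overlapped. The log2 difference was -0.41 ± 0.61 and rested on single libraries: it was -1.0 without NR2 and -0.061 without NR1.

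**Figure D2:**
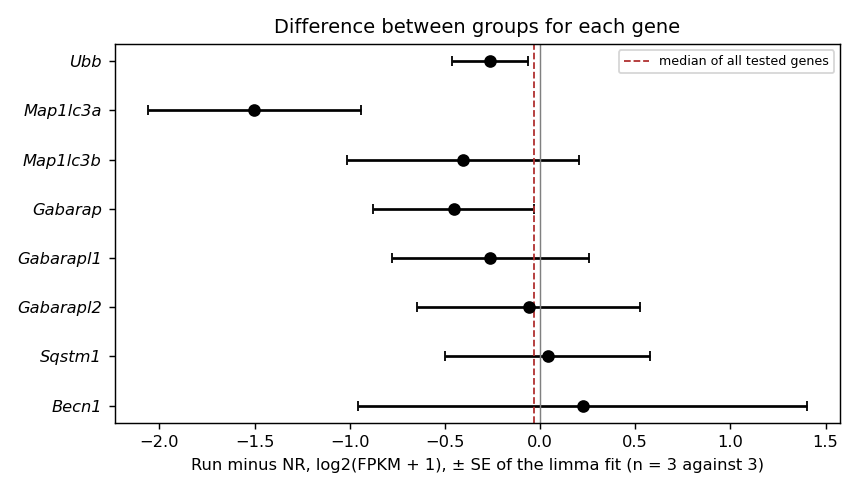
Run minus NR difference of each gene on the log2(FPKM + 1) scale, with bars of 1 standard error to either side from the limma fit (n = 3 against 3) and a dashed line at the median of all tested genes, -0.034. Map1lc3a lies farthest from 0 at -1.50, and Becn1 has the widest error at 1.18.

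The GABARAP genes act later in the growth and closure of autophagosomes and in their delivery to lysosomes. Gabarap (chr11:69991143-69994951, plus strand) read 257, 224 and 281 FPKM in NR1 to NR3 and 225, 129 and 216 in Run1 to Run3. The groups touched, with NR2 at 224.4 just under Run1 at 224.8, and Run2 was low alone. The log2 difference was -0.45 ± 0.42, and -0.20 without Run2.

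Gabarapl1 (chr6:129533160-129542346, plus strand) read 159, 166 and 207 FPKM in NR1 to NR3 and 92.2, 239 and 143 in Run1 to Run3. The lowest and the highest library were both Run libraries. The log2 difference was -0.26 ± 0.52 and turned to 0.071 without Run1. Gabarapl2 (chr8:111940703-111953612, plus strand) read 193, 101 and 134 in NR1 to NR3 and 80.8, 125 and 229 in Run1 to Run3, and here too Run held both extremes. Its log2 difference was -0.059 ± 0.59, from -0.45 without Run3 to 0.29 without Run1.

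Taken as a family, the 5 LC3 and GABARAP genes summed to 1373, 979 and 1178 FPKM in NR1 to NR3 and 790, 717 and 883 in Run1 to Run3. These sums did not overlap between the groups. Without Map1lc3a they were 972, 589 and 940 in NR1 to NR3 and 560, 635 and 798 in Run1 to Run3, with NR2 below Run2 and Run3. The 3 GABARAP genes alone summed to 610, 491 and 622 in NR1 to NR3 and 398, 493 and 588 in Run1 to Run3, which also overlapped.

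The make-up of the family also differed between libraries. Both LC3 genes together held 55.6%, 49.8% and 47.2% of the family FPKM in NR1 to NR3 and 49.7%, 31.2% and 33.5% in Run1 to Run3. Run1 lay within the NR range, and Run2 and Run3 lay below it. The means were 50.9% ± 4.31 and 38.1% ± 10.1 (SD, n = 3 each). Map1lc3a alone held 29.7% ± 9.84 in NR and 16.7% ± 10.7 in Run, while Map1lc3b held 21.1% ± 9.66 and 21.4% ± 2.17.

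**Figure D3:**
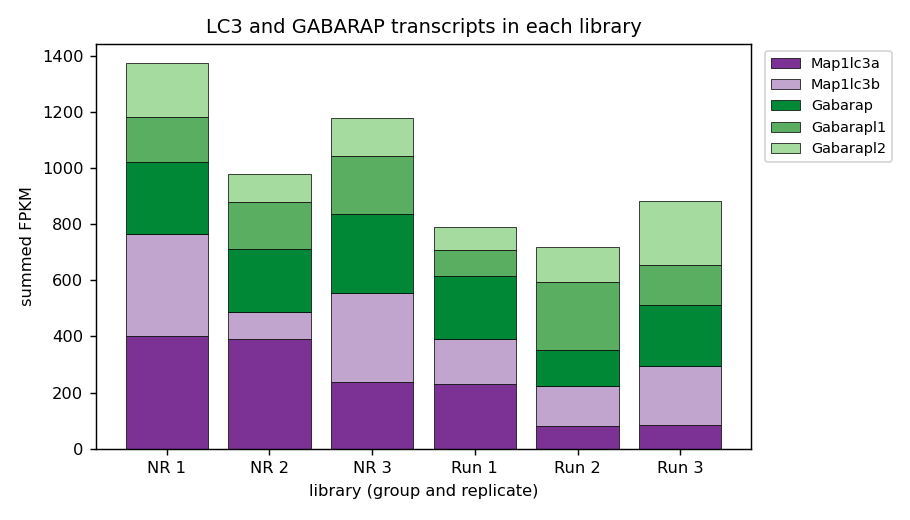
Stacked bars of the FPKM of the 5 LC3 and GABARAP genes in each library, with the axis from 0 and 1 colour per gene. The bars reach 979 to 1373 in NR and 717 to 883 in Run, and the Map1lc3a portion is smallest in Run2 and Run3.

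Sqstm1 (chr11:50199366-50210827, minus strand), the receptor that ties ubiquitin to LC3, came after Ubb in level over all 6 libraries, but by a step to Gabarap within its spread, and it ranked behind Map1lc3a in the NR means. Its FPKM was 280, 168 and 428 in NR1 to NR3 and 417, 164 and 321 in Run1 to Run3. Each group held a low library, NR2 and Run2, and a high one, so the groups lay over each other. The log2 difference was 0.041 ± 0.54, from -0.31 without NR2 to 0.42 without Run2.

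Becn1 (chr11:101285952-101302286, minus strand) had the lowest mean level and the widest spread. Its FPKM was 34.0, 106 and 6.45 in NR1 to NR3 and 29.1, 21.4 and 65.1 in Run1 to Run3. NR held both extremes, 16.5-fold apart, with every Run library between them. The linear means, 48.9 ± 51.5 for NR and 38.5 ± 23.3 for Run (SD, n = 3 each), and the log2 difference of 0.22 ± 1.18 had opposite signs. The log2 difference was -0.79 without NR3, -0.22 without Run3 and 1.13 without NR2. Of the 1751 genes at FPKM 1 in every library, 90.0% had a smaller residual SD than Becn1.

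On the log2(FPKM + 1) scale, 2 of the 8 genes had a higher mean in Run and 6 a lower one, with a median difference of -0.26. The linear means gave the opposite sign for Becn1 and for Gabarapl2, which averaged 143 FPKM in NR and 145 in Run. Over all 6155 genes fitted, 3007 had a higher mean in Run (48.9%) and the median was -0.034. In limma, 0 of the 6155 genes had an adjusted p under 0.05 (0%), while 304 (4.94%) had an unadjusted p under 0.05. The smallest adjusted p of any gene was 0.244.

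The order of levels over the 6 libraries was Ubb, Sqstm1, Gabarap, Map1lc3a, Map1lc3b, Gabarapl1, Gabarapl2 and Becn1. FPKM is a level per length, which allows this order. A step was taken as beyond the spread where its mean log2 gap exceeded the SD of that gap over the libraries. That held for Ubb over Sqstm1, with a gap of 2.57 ± 0.60 (SD) seen in 6 of 6 libraries, and for Gabarapl2 over Becn1, with 2.05 ± 1.40 in 5 of 6. The 5 steps from Sqstm1 to Gabarapl2 did not exceed their spread. In the means of the groups, Map1lc3a took rank 2 in NR and rank 7 in Run, and no other gene moved by more than 1 rank.

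Reads of several of these genes may have been shared with copies elsewhere in the genome. Stretches of 50 bases from the transcripts of each gene were searched on both strands in all other GENCODE M21 transcripts. Map1lc3a and Gabarap shared none of theirs. Ubb shared 629 of 1311 with Ubb-ps (48.0%) and 329 with the protein-coding gene Gm8797 (25.1%), which stood at 19.8 to 29.5 FPKM. The FPKM of Ubb-ps followed that of Ubb closely, at 30.4% to 32.4% of it in every library (31.2% ± 0.80, SD, n = 6).

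Map1lc3b shared 6.01% of its stretches and Gabarapl2 12.2% with other genes. Their main processed pseudogenes followed them too, Gm6055 (chr14:48079375-48079752) at 4.69% to 5.78% of Map1lc3b and Gm3724 (chr5:24118316-24118664) at 5.76% to 6.76% of Gabarapl2. With the main pseudogene added, a calculation chosen after seeing the data, the log2 differences were -0.27 for Ubb, -0.40 for Map1lc3b and -0.059 for Gabarapl2. Gm6054, a further processed pseudogene with 1.46% of the Map1lc3b stretches, was not added and did not follow Map1lc3b. It read 16.8, 15.6 and 3.27 FPKM in NR1 to NR3 and 1.81, 1.41 and 2.66 in Run1 to Run3. The annotated protein-coding gene Gm20388 lies over all 8400 bases of Map1lc3b on the same strand. No value is listed under its symbol, so how reads were divided between it and Map1lc3b cannot be seen. Becn1 shared 36.8% of its stretches with Cntd1 on the opposite strand, which reached at most 0.105 FPKM. Sqstm1 shared 15.5% with Mrnip, also on the opposite strand, which stood at 33.2 FPKM in NR3 and at most 0.0727 elsewhere. Gabarapl1 shared 23.1% with 1700101I11Rik, at most 0.160 FPKM. The sources used here do not say whether strand was used in counting, so reads within the shared stretches of such pairs cannot be told apart.

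**Figure D4:**
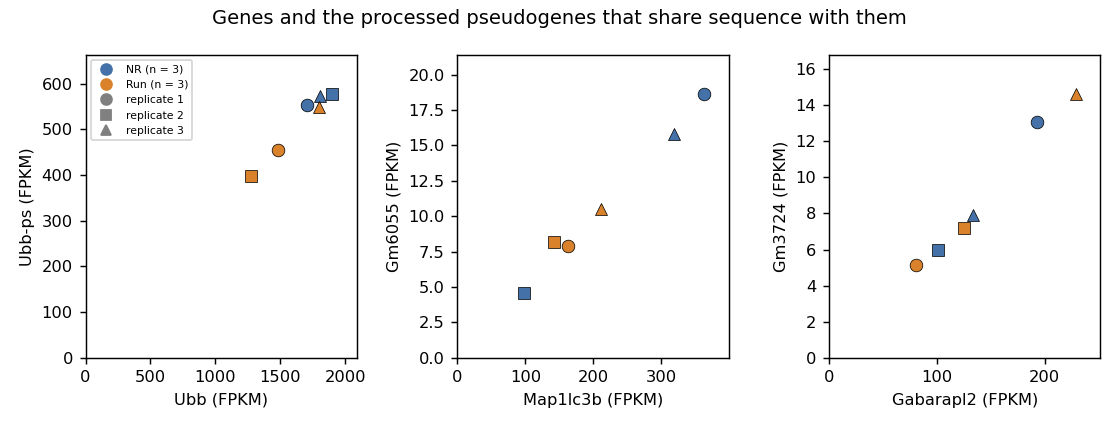
FPKM of the processed pseudogene with the most shared stretches against that of Ubb, Map1lc3b and Gabarapl2, on linear axes from 0 with 1 point per library (colour for the group, shape for the replicate number). In each pair the points rise together, with mean ratios of 31.2% for Ubb-ps, 5.07% for Gm6055 and 6.19% for Gm3724.

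Genes whose profile over the 6 libraries was most like each of the 8 were ranked by the root mean square difference of centred log2 profiles among the 1751 genes. For Ubb these were Ubb-ps (0.033) and Gm12070 (0.074), for Map1lc3b Gm6055 (0.096) and Rnf141 (0.17), and for Gabarapl2 Gm3724 (0.074) and Cdkn1b (0.24), so sequence copies led all 3. For Gabarap they were Gm9800 (0.16) and Ostf1 (0.17), for Gabarapl1 Gstm2-ps1 (0.12) and Gm9616 (0.18), and for Sqstm1 Gm13268 (0.14) and Nudt16l1 (0.14).

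Map1lc3a had no near match. Its closest profiles were Gm7887 (0.38) and Tax1bp1 (0.39), the latter itself a cargo receptor that binds ubiquitin and LC3. Tax1bp1 read 85.8, 48.0 and 46.4 FPKM in NR1 to NR3 and 41.7, 17.2 and 25.6 in Run1 to Run3, and its groups did not overlap. Because Tax1bp1 was picked by its likeness to Map1lc3a over these same libraries, this is not a separate observation. Becn1 was still farther from any gene, with Mras (0.55) and Ndufaf8 (0.60) closest. Among the 8 genes, the nearest pair was Ubb and Gabarap (0.23), both low in Run2. Even so, 19 other genes were closer to Gabarap than Ubb was, and 51 were closer to Ubb than Gabarap was. Such likeness over 6 libraries is a description only.

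Of 128 other genes of the ubiquitin and autophagy pathways, listed by function with earlier results of these data known, 71 passed the filter on low values and 23 reached FPKM 1 in all 6 libraries, while 9 stayed under 1 everywhere. Of the 71, 41 had a higher and 30 a lower mean in Run, with a median log2 difference of 0.17. At an unadjusted p under 0.05 stood 6 genes (8.45%), 4 higher and 2 lower in Run, against 4.94% of all genes fitted. In limma, 0 of the 71 passed the adjusted threshold. FPKM 1 in every library was reached by 8 of the 8 genes described above and by 1751 of all 6155 genes fitted. Because the 8 were chosen with results of these data in view, nothing is read from this contrast.

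In the enzymes that attach and remove ubiquitin, the deubiquitinase Usp9x was listed at 0 in NR1 and NR2 and read 0.088 in NR3, against 12.8, 24.7 and 14.0 FPKM in Run1 to Run3 (limma adjusted p 0.244). Uchl3, a hydrolase that frees ubiquitin from small adducts, read 0.373, 2.49 and 4.65 in NR1 to NR3 and 55.7, 50.9 and 68.3 in Run1 to Run3 (log2 difference 4.29 ± 1.12, limma adjusted p 0.340). The conjugating enzyme gene Ube2d3 stood lower in every Run library, at 93.0, 73.6 and 85.8 in NR1 to NR3 and 32.4, 22.9 and 8.13 in Run1 to Run3 (-2.13 ± 0.82, limma adjusted p 0.917). Ube2a read 0.021, 15.8 and 0 in NR1 to NR3 and 22.2, 67.8 and 36.8 in Run1 to Run3 (limma adjusted p 0.955). Ube2b, Otub1 and the neuronal hydrolase Uchl1, named for their abundance, had means over the 6 libraries of 129, 142 and 94.8 FPKM, and their groups overlapped.

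In the ubiquitin-like modifiers, Fau, a fusion of such a protein with a ribosomal protein, averaged 417 FPKM and Sumo2 222, and Sumo3 and Ubl5 had the smallest unadjusted p of the list at 0.328 and 0.175. Among the genes that initiate autophagy and supply lipid, Atg101 was listed at 0 in NR1 and NR3 and read 32.0 in NR2, against 110, 41.9 and 36.8 in Run (limma adjusted p 0.965). Vmp1, a membrane protein of the endoplasmic reticulum, read 47.6, 64.1 and 33.0 in NR1 to NR3 and 4.32, 0.013 and 11.7 in Run1 to Run3 (-3.54 ± 1.30, limma adjusted p 0.881). Wdr45 was listed at 0 in NR1 and Run2 and reached 103 in Run1.

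The partners of Becn1 were measured sparsely. Sh3glb1 read 9.48 to 20.4 FPKM in NR and 19.7 to 36.7 in Run, whereas Bcl2l1, whose product binds Becn1, was listed at 0 in Run3 and reached 125 in Run1, and Nrbf2 was listed at 0 in NR1, Run1 and Run2. Of 11 genes for the enzymes that process and conjugate LC3 and GABARAP, 3 were fitted: Atg4b, Atg5 and Atg7, with log2 differences of 1.74 ± 2.16, 1.29 ± 1.66 and 1.55 ± 1.74. None of the 11 reached FPKM 1 in all 6 libraries, unlike all 5 of the genes whose products they act on.

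Among the cargo receptors, 10 of 14 genes were fitted, 4 with a higher and 6 with a lower mean in Run (median log2 difference -0.36), and none passed the unadjusted threshold. Tollip was higher in every Run library, at 79.0, 112 and 51.0 FPKM against 0, 11.99 and 31.5 in NR1 to NR3 (3.37 ± 1.43). The mitochondrial receptor Phb2 was lower in every Run library, at 0.073, 30.3 and 49.6 against 58.6, 125 and 90.4 (-2.89 ± 1.54). Bnip3 and Fkbp8 were the most abundant, averaging 91.7 and 71.3 FPKM, and overlapped between groups. For autophagosome fusion the named genes were Rab7 and Vamp8, averaging 197 and 78.8 FPKM, and Vps11 and Vps33a, each listed at 0 in 3 libraries. The regulators Foxo1, Nfe2l2 and Keap1 reached at most 15.5, 37.7 and 31.7 FPKM and were each listed at 0 in at least 1 library.

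**Figure D5:**
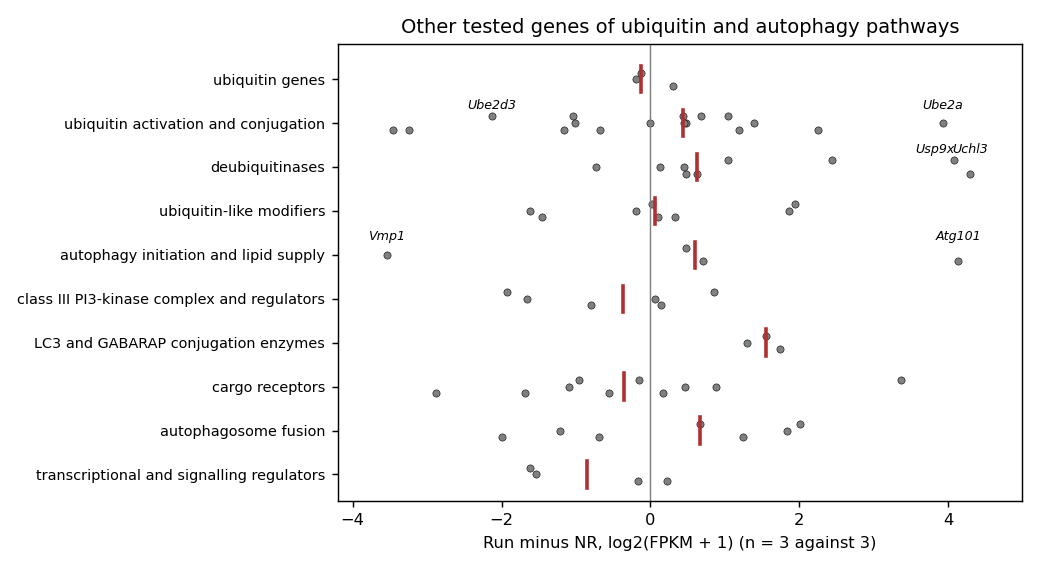
Run minus NR difference on the log2(FPKM + 1) scale for the 71 other pathway genes fitted, 1 point per gene, by functional list, with red bars at the list medians. The 6 labelled genes had an unadjusted limma p under 0.05, 4 to the right of 0 and 2 to the left, and none passed the adjusted threshold.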

How the data were processed

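Polyadenylated RNA of 6 libraries, 3 NR and 3 Run by their treatment label, had been made into cDNA with Smart-seq2. The authors deposited FPKM values, in 1 table that holds all libraries. StringTie 2.1.7, STAR 2.7.5c and Trimmomatic 0.39 are listed, and build mm10, per the submitters' processing notes. DESeq2 and edgeR are listed there without a version. The sources used here give neither the annotation nor the role of each tool. FPKM holds no read totals, so depth is unknown and no counting interval is given.

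Genes reaching FPKM 1 in 3 or more of the 6 libraries (6155) were fitted on log2(FPKM + 1). The test was limma (3.58.1, under R 4.3.3), 2-sided, its prior variance following the mean, with p-values adjusted by Benjamini-Hochberg at 0.05. The log2(FPKM + 1) scale understates changes of low genes. No p is given for the 8 genes.

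The genes and lists were chosen with earlier results of these data known. Named were the 8 genes, other ubiquitin genes, the 2 genes of smallest unadjusted p and the 2 of highest mean FPKM in each list, and the 2 profiles most like each of the 8 genes. Genes singled out beyond this rule were picked after results of these data were seen: Mrnip, Cntd1, 1700101I11Rik, Gm8797, Gm6054, Gm20388 and Dsp. Some genes that the rule names are not reported here. Coordinates, coding sequences and 50-base stretches came from GENCODE M21 (GRCm38), read with Python 3.11.15 and Biopython 1.88. Alternatives were another pseudocount, other filters, quantile normalization, scaling to summed nuclear FPKM, a replicate block and leaving out each library.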

Additional observations from a re-analysis of the deposited data

How the results depend on the processing

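The count of genes past the adjusted threshold was 0 under each alternative. Restricted to genes at FPKM 1 in all 6 libraries, 1751 genes were tested in place of 6155, so counts must be read against these totals. Of the 1751, 82 had an unadjusted p under 0.05, in place of 304 of the 6155. Groups did not overlap in 161 of the 1751, in place of 551 of the 6155. Among other pathway genes, 1 of 23 passed the unadjusted threshold, in place of 6 of 71. Without a filter more genes were tested, and 888 had groups that did not overlap. Leaving out each library in turn, genes at an unadjusted p under 0.05 ran from 302 to 365, and other pathway genes at that threshold from 3 to 5. Genes whose groups did not overlap ran from 1012 to 1254 (fewer libraries overlap less by construction). The pathway count was 3 without NR3 and 3 without Run3. With the replicate number as a block (replicate block), 3 pathway genes passed the unadjusted threshold. Whether equal numbers pair the libraries is not stated in the sources used here. To check this, deviations of log2(FPKM + 1) from the group mean of each gene were correlated between NR and Run libraries. For same-numbered libraries these correlations of deviations were 0.021, 0.0042 and 0.018. By this measure each NR library correlated best with the Run library of its own number. Values this small cannot decide whether the libraries are paired. In this balanced design a replicate block cannot change a difference of means, so it says nothing about the 8 differences. Of the 8 genes, 2 had a higher Run mean on the log2 scale. Their number was 1 (Becn1) under quantile normalization, and ranged from 0 without Run3 to 3 without NR1 or Run1. Ubb, Map1lc3a, Map1lc3b and Gabarap kept a lower Run mean under every other alternative run. The sign turned for Gabarapl1 without Run1 (0.071), for Gabarapl2 without NR1 (0.18) and without Run1 (0.29), for Sqstm1 under quantile normalization (-0.012) and without NR2 (-0.31), Run1 (-0.25) or Run3 (-0.057), and for Becn1 without NR3 (-0.79) or Run3 (-0.22). The cause was not tested.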
